A study of Danio rerio with 4 samples.

Results

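The subject here is a set of 10 zebrafish (Danio rerio) genes for sugar breakdown and the response to low oxygen, chosen by gene symbol: slc2a1a, aldoaa, gapdh, tpi1b, pgk1, eno1a, ldha, pfkfb3, igfbp1a and slc16a3. They are 10 of the 28697 gene symbols in the deposited tables, and 36 of the 57596 transcripts. Whole embryos were injected at the one-cell stage with 2 nl of morpholino solution. Controls received 8 ng of control morpholino, and the knockdown embryos a mix of rbm14a and rbm14b morpholinos at 4 ng each. Morpholinos are antisense oligomers that block translation or splicing of a target mRNA, and the labels do not say which of these the rbm14 morpholinos do. All embryos, controls included, also received 300 pg of GFP mRNA as an injection marker and were kept at 28.5 °C in Holtfreter's solution. The 4 libraries are control morpholino at 10 hours post fertilization (hpf), rbm14 morpholinos at 10 hpf, control morpholino at 24 hpf and rbm14 morpholinos at 24 hpf. Each was made from poly(A) RNA of 1 pool of 50 embryos, so no difference below has a replicate check and no p-value was computed. No uninjected or rescued embryos are among the libraries, so side effects of morpholinos cannot be told apart from loss of Rbm14.

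Glycolysis splits glucose into pyruvate in the cytosol and yields ATP without oxygen, and lactate dehydrogenase then turns pyruvate into lactate. When oxygen is scarce, the hypoxia-inducible factor (HIF) is stabilized and raises transcription of many glycolytic genes, of glucose and lactate transporters and of genes such as igfbp1a, whose product binds insulin-like growth factors. In vertebrate embryos the enzymes are also strongly expressed in fast skeletal muscle, and many steps have paralogs used in different tissues.

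The values are TPM, a transcript abundance per length scaled to the same total in every library, summed by gene symbol. Genes that reached 5 TPM numbered 7120 (control) and 6305 (rbm14) at 10 hpf, and 7000 and 8866 at 24 hpf. Below, values in pairs give the control library first and the rbm14 library second. The targeted mRNAs were present in every library, rbm14a at 170 and 254 TPM in the 10 hpf pair and 70.5 and 82.7 TPM in the 24 hpf pair, rbm14b between 19.3 and 28.8 TPM, which does not check the labels because a translation block need not lower the mRNA. The labelled stages were reflected in the markers. All 12 gastrula markers were at least 2-fold lower at 24 than at 10 hpf in the controls, and all 20 fast muscle markers were at least 2-fold higher. Of 8784 genes at 5 TPM or more in one of these libraries, 23.1% were that much lower and 29.6% that much higher. Folds and log2 ratios below are on the log2(TPM + 0.5) scale after rescaling each pair of libraries by a trimmed mean. The shift removed, as log2 of rbm14 over control, was −0.25 at 10 hpf and 0.64 at 24 hpf, so each ratio is relative to that shift. A gene is called higher or lower when it differs by at least 2-fold and reaches 5 TPM in one of the libraries.

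At 24 hpf most of the set stood lower in the rbm14 morpholino library while the glucose transporter gene slc2a1a stood higher. Of all 9121 genes at 5 TPM or more 15.9% were called in either direction. Of 9 members at that level, 7 were called lower (aldoaa, gapdh, pgk1, eno1a, ldha, igfbp1a and slc16a3), against 8.85% of all genes, and 1 was called higher (slc2a1a), against 7.01%. The member between was tpi1b, and pfkfb3 was under 5 TPM. The median log2 ratio over the 10 members was −1.14, and over all 14909 genes at 1 TPM or more it was 0.08. Without rescaling 1 member, ldha, was called lower (2.74% of all genes) and 1, slc2a1a, higher (27% of all genes). In the deposited TPM 8 of the 10 members were lower in the rbm14 library, whereas 18.2% of the 14909 genes were lower.

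At 10 hpf the set was divided, and 9.12% of all 7321 genes were called in either direction. Of 5 members at 5 TPM or more, igfbp1a was called lower (5.56% of all genes were lower) and slc16a3 was called higher (3.57% were higher). The other members there, aldoaa, gapdh and tpi1b, lay between, and slc2a1a, pgk1, eno1a, ldha and pfkfb3 were under 5 TPM in both libraries. Without rescaling igfbp1a remained lower, where 9.23% of genes were lower, and slc16a3 remained higher, where 2.12% were higher.

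**Figure D1:**
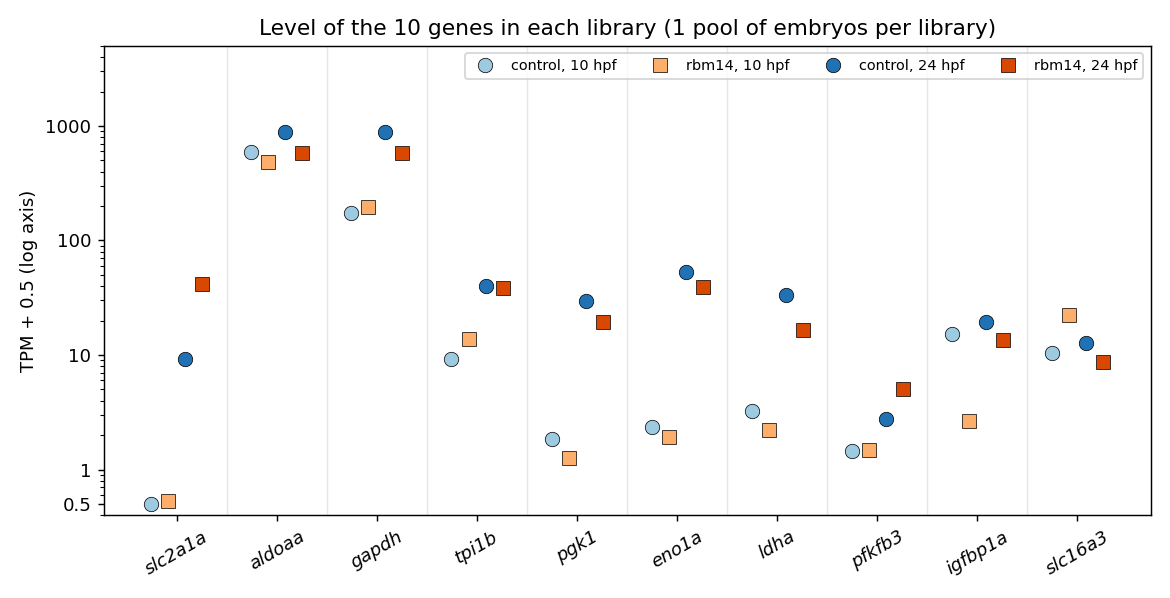
Level of each of the 10 genes as TPM + 0.5 on a log axis, with circles for the control and squares for the rbm14 morpholino libraries, pale at 10 hpf and dark at 24 hpf, and 1 library per point. The genes aldoaa and gapdh lie far above the others, slc2a1a is near 0 at 10 hpf and reaches 40.9 TPM in the rbm14 library at 24 hpf, and igfbp1a is low in the rbm14 library at 10 hpf alone.

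The genes differ widely in level. At 10 hpf with the control morpholino, aldoaa had 73.4% of the TPM of the set and gapdh 21.6%, followed by igfbp1a, slc16a3, tpi1b, ldha, eno1a, pgk1, pfkfb3 and slc2a1a. In the rbm14 library of that stage igfbp1a came below slc16a3 and tpi1b. At 24 hpf the control library had gapdh at 45.1% and aldoaa at 44.9%, so their order there rests on a difference of 885 against 882 TPM. The glucose transporter gene slc2a1a had a higher level than pfkfb3 alone in the 24 hpf control, and was exceeded by aldoaa and gapdh alone in the 24 hpf rbm14 library. Neighbours in these orders have no replicate spread to be judged against. The 10 genes summed to 809 and 719.6 TPM in the 10 hpf pair, and to 1964 and 1334 TPM in the 24 hpf pair.

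The transporter genes of the set lay on opposite sides of the control at 24 hpf. The slc2a1a gene encodes Glut1, which carries glucose across the plasma membrane, and is known in zebrafish for its role in brain and its vessels. It was listed at 0 TPM in the 10 hpf control and at 0.03 TPM in the 10 hpf rbm14 library, then at 8.66 TPM in the 24 hpf control and at 40.9 TPM in the 24 hpf rbm14 library. The 24 hpf levels differed by 2.94-fold after rescaling (log2 ratio 1.56), and 2.16% of the 9121 genes had a ratio as high or higher. No fold is given at 10 hpf because of the listed 0. Its paralog slc2a1b had at most 1.14 TPM in any library.

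The slc16a3 gene encodes the monocarboxylate transporter Mct4, which exports lactate. Its level was 10.0 TPM (control) against 21.7 TPM (rbm14) in the 10 hpf pair, then 12.3 TPM against 8.21 TPM in the 24 hpf pair. The rbm14 library was thus the higher one at 10 hpf, by 2.50-fold (log2 ratio 1.32), and the lower one at 24 hpf, by 2.24-fold (−1.16). At 24 hpf the call was lost without rescaling (−0.56) and with a pseudocount of 5. The related transporter gene slc16a1b, for the lactate carrier Mct1, had 46.1 and 54.1 TPM in the 10 hpf pair (log2 ratio 0.48), then 3.43 and 9.52 TPM in the 24 hpf pair (0.77). Bsg, the chaperone that brings these carriers to the membrane, had its gene at 234 and 238 TPM and then at 91.4 and 165 TPM, with log2 ratios of 0.27 and 0.21. Of the 14 other glucose and lactate transport genes, these included, 9 were under 5 TPM at each stage, and none was called. Medians were 0.17 over 6 genes at 1 TPM or more at 10 hpf, and 0.19 over 10 at 24 hpf. Without rescaling slc16a1b was called higher at 24 hpf (1.35), where 27% of all genes were, and the median of the list there was 0.81.

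Among the 6 enzyme genes of the set, aldoaa encodes aldolase, which splits fructose bisphosphate. Its levels were 593 and 482 TPM in the 10 hpf pair (log2 ratio −0.05), and 882 and 579.5 TPM in the 24 hpf pair (−1.25, 2.37-fold lower). The gapdh gene, for the dehydrogenase that makes the first high-energy phosphate of the pathway, had 175 and 195 TPM in the 10 hpf pair (0.41), then 885 and 576 TPM in the later pair (−1.26, 2.39-fold lower). For both genes the 24 hpf control was the highest of the 4 libraries. Both calls were lost without rescaling, with log2 ratios of −0.61 and −0.62, and with a scaling that follows expression level, with −0.57 and −0.58.

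The pgk1 gene, for phosphoglycerate kinase, had 1.33 and 0.75 TPM in the 10 hpf pair, then 29.4 and 18.8 TPM in the 24 hpf pair (−1.25, 2.38-fold lower). The eno1a gene, for an enolase, was at 1.86 and 1.43 TPM early, then at 52.9 and 38.9 TPM in the 24 hpf pair (−1.07, 2.10-fold lower). The pgk1 and eno1a calls were lost without rescaling, with log2 ratios of −0.63 and −0.44. That of eno1a was also lost with the scaling that follows expression level (−0.94) and with a pseudocount of 5 (−0.97). The ldha gene, for the lactate dehydrogenase subunit that favours lactate formation, was at 2.76 and 1.70 TPM early, then at 33.2 and 16.1 TPM in the 24 hpf pair. All of pgk1, eno1a and ldha were under 3 TPM in both 10 hpf libraries and lowest there with the rbm14 morpholinos. At 24 hpf ldha was the lowest of the set (−1.65, 3.13-fold lower), 2.57% of all genes had a ratio as low or lower, and it was called lower without rescaling as well (−1.02). The triosephosphate isomerase gene tpi1b had 8.69 and 13.4 TPM in the 10 hpf pair (0.84), then 39.2 and 37.6 TPM in the 24 hpf pair (−0.69). It was not called at either stage, and its 24 hpf levels were close before rescaling (−0.06), while with median-of-ratios scaling it passed the rule as higher at 10 hpf (1.03).

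The regulator in the set, pfkfb3, encodes the enzyme that makes fructose 2,6-bisphosphate, an activator of phosphofructokinase. It was low in each library, with 0.95 and 0.98 TPM in the 10 hpf pair, then 2.26 and 4.59 TPM in the 24 hpf pair, and its log2 ratios were 0.20 and 0.33. Its level never reached the 5 TPM that a call requires. The paralog pfkfb4b held 92% of the PFKFB TPM in the control at 10 hpf, and 63.5% at 24 hpf. Its level was 130 TPM in both 10 hpf libraries, then 13.1 and 24.9 TPM in the 24 hpf pair. Of 13 other regulator genes 11 were under 5 TPM at each stage, and none was called. Medians were 0.16 over 3 genes at 1 TPM or more at 10 hpf, and 0.08 over 7 at 24 hpf. Without rescaling pdk4 was called higher at 24 hpf (1.23), where 27% of all genes were.

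The igfbp1a gene encodes a secreted binding protein that holds insulin-like growth factors away from their receptor, and in zebrafish it is induced by hypoxia. Its level was 14.8 TPM (control) against 2.17 TPM (rbm14) in the 10 hpf pair, then 18.8 TPM against 13.1 TPM in the 24 hpf pair. The 10 hpf rbm14 library was the low one of the 4, and the other libraries lay within 13.1 to 18.8 TPM. The 10 hpf ratio was −2.29 (4.90-fold lower), a value reached by 0.355% of the 7321 genes, and it ran from −2.52 to −1.33 under the other settings tried. The 24 hpf ratio was −1.12 (2.18-fold lower), and −0.51 without rescaling. The 24 hpf call was lost without rescaling and with a pseudocount of 5. The paralog igfbp1b had at most 0.83 TPM in any library. Of the 9 other Igf binding protein genes 3 reached 5 TPM at 24 hpf and none at 10 hpf, and none was called. Without rescaling igfbp7 was higher at 24 hpf (1.58), where 27% of all genes were.

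**Figure D2:**
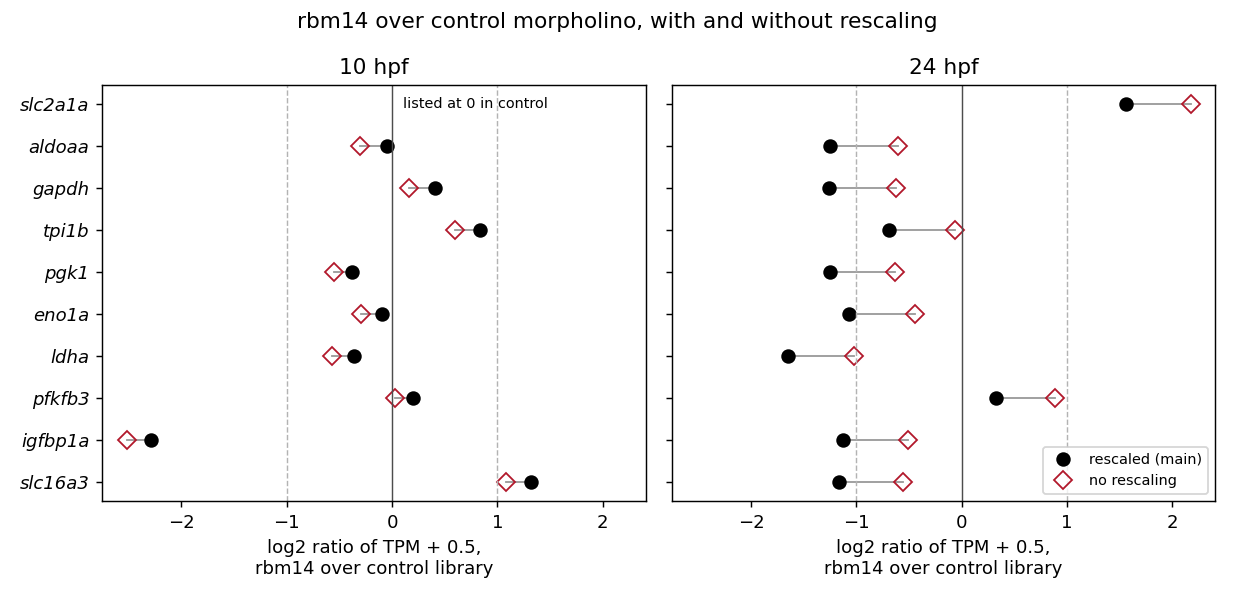
The log2 ratio of rbm14 over control library for each gene at 10 hpf (left) and 24 hpf (right), on the TPM + 0.5 scale, with filled circles after rescaling and open diamonds without it, and dashed lines at 2-fold. At 24 hpf rescaling moves each gene to the left, and 8 genes lie left of 0 with both, slc2a1a and pfkfb3 lie right of 0, and ldha is left of the 2-fold line with both.

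**Figure D3:**
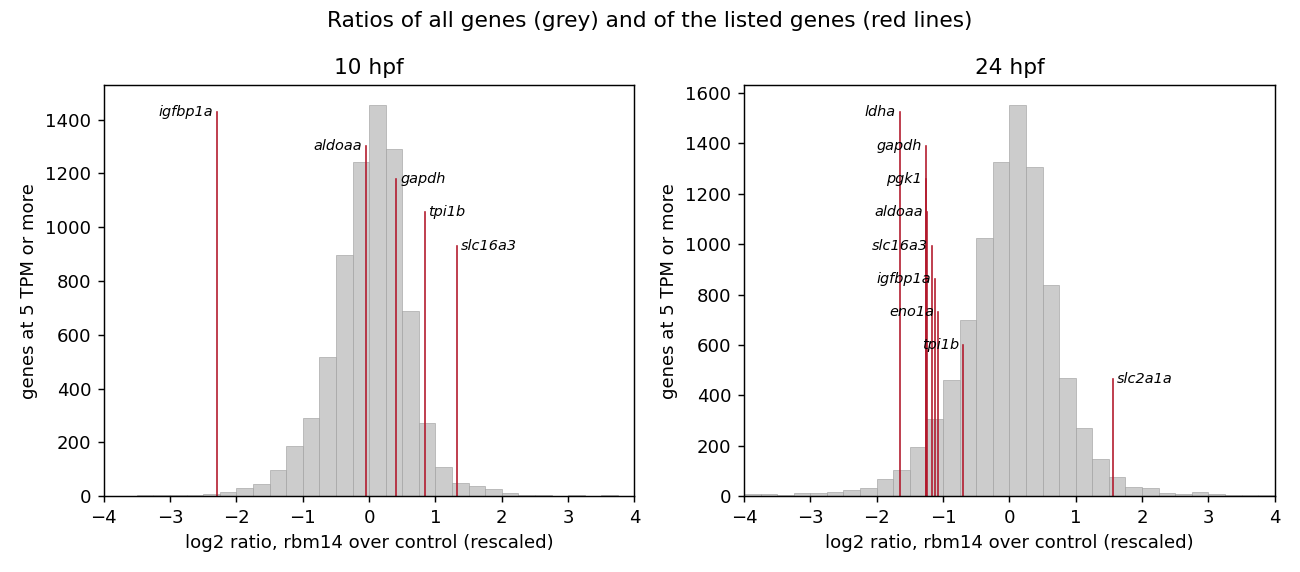
Number of genes at 5 TPM or more by log2 ratio of rbm14 over control after rescaling, at 10 hpf (left, 7321 genes) and 24 hpf (right, 9121 genes), with red lines at the listed genes that reach 5 TPM (line height has no meaning). At 24 hpf 7 of the lines lie between −1.65 and −1.07 on the lower flank of all genes and slc2a1a lies on the upper flank, while at 10 hpf igfbp1a and slc16a3 lie on opposite flanks.

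For 3 members the rbm14 library stood on opposite sides of its control at the stages, under the trimmed-mean scaling, median-of-ratios scaling and none, with the 24 hpf side below. The log2 ratio at 24 hpf minus that at 10 hpf was −2.49 for slc16a3, −1.67 for gapdh and −1.53 for tpi1b. Without rescaling the differences were smaller, at −1.64, −0.78 and −0.66, and the 24 hpf ratio of tpi1b was then −0.06. These differences could not be tested with 1 library per group.

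The same steps were followed through the other genes of the pathway, from lists chosen with earlier results of these data known. Of 27 other glycolytic enzyme genes, 14 were under 5 TPM in both 24 hpf libraries, 6 were called lower, none was called higher and 7 lay between, where 8.85% of all genes were lower. Without rescaling 1 of these 6 calls, pgam2 (−1.37), was kept, where 2.74% of all genes were lower. Their median log2 ratio over 21 genes at 1 TPM or more was −0.87, and −0.23 without rescaling, where the median of all genes over 5 TPM was 0.65. The lowest was pgam2, the muscle form of phosphoglycerate mutase, with 37.7 and 14.3 TPM (3.98-fold lower). Among genes at 5 TPM or more it was followed by gpia, a glucose-6-phosphate isomerase gene (28.2 and 16.1 TPM, 2.66-fold), and eno3, the muscle enolase gene (86.8 and 52.6 TPM, 2.55-fold). The others called were gapdhs, aldoab and the pyruvate kinase gene pkma, with log2 ratios of −1.13, −1.11 and −1.11. The hexokinase gene hk1, for the first step, had 14.1 and 23.6 TPM (0.10), and the phosphofructokinase gene pfklb had 34.7 and 36.9 TPM (−0.55). At 10 hpf none of the 6 other enzyme genes at 5 TPM or more was called. Without rescaling gpia was called lower there (−1.05), where 9.23% of all genes were.

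The members stood for different shares of their steps. In the control at 24 hpf ldha held 5.06% of the lactate dehydrogenase TPM, and ldhba, for the subunit typical of heart and oxidative tissue, held 94.7%. The ldhba gene had 327 and 386 TPM in the 10 hpf pair (log2 ratio 0.49), then 621 and 529 TPM in the 24 hpf pair (−0.87), so the summed step had a ratio of −0.90 at 24 hpf and −0.27 without rescaling. For enolase, eno1a held 6.44% of the control TPM at 10 hpf and 37.1% at 24 hpf, with eno3 at 92.7% and 60.8%. Shares of near-identical paralogs are uncertain, because reads that match several of them may have been divided.

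**Figure D4:**
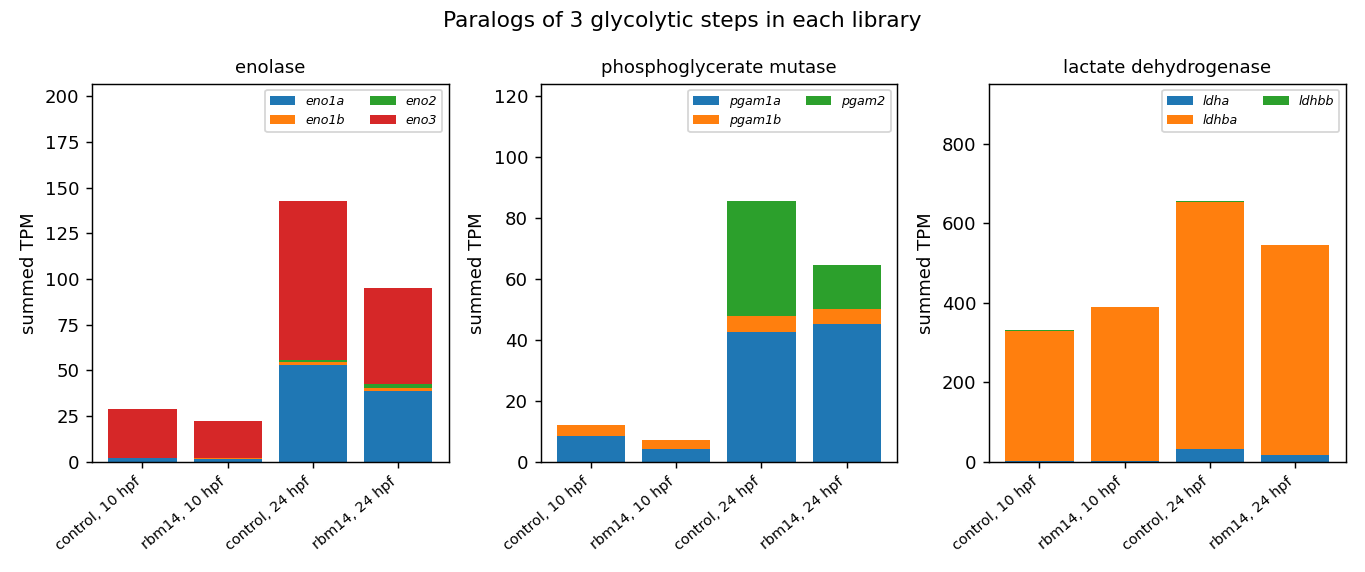
Summed TPM of enolase, phosphoglycerate mutase and lactate dehydrogenase genes in each library, stacked by paralog, with a separate axis from 0 for each step. The genes eno3 and ldhba make up most of their step at 10 hpf, pgam2 appears at 24 hpf, and at 24 hpf each of the 3 sums is lower in the rbm14 than in the control library.

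The HIF pathway itself was read from 15 genes for its subunits and regulators. At 24 hpf 2 of the 6 at 5 TPM or more were called lower and 4 lay between, where 8.85% of all genes were lower. The median over 10 genes was 0.25. Both calls were lost without rescaling (vhl −0.84 and hif1an −0.77). Then epas1a was called higher (1.32), where 27% of all genes were, and the median was 0.88. The genes called lower after rescaling were vhl and hif1an. The vhl gene encodes the ubiquitin ligase subunit that marks HIF for degradation (15.9 and 8.63 TPM, 2.74-fold lower). The hif1an gene encodes the hydroxylase that blocks coactivators of HIF (11.5 and 6.54 TPM, 2.58-fold lower). The HIF subunit gene hif1ab had 42.0 and 74.5 TPM (0.18) and the oxygen-sensing hydroxylase gene egln1b 43.1 and 83.8 TPM (0.32). The highest 24 hpf ratio of the list was that of arnt, at 0.40 and 3.63 TPM (1.77, and 2.20 without rescaling). Its level was under that required for a call. At 10 hpf none of 6 was called, and hif1ab had 61.0 and 62.0 TPM (0.27).

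Among genes known as hypoxia targets, 3 were called lower at 10 hpf and 3 others higher at 24 hpf. Of 31 such genes other than igfbp1a, 3 were called higher, none lower and 15 lay between at 24 hpf (median −0.22 over 27 genes, and 0.36 without rescaling), where 7.01% of all genes were called higher and 8.85% lower. The higher genes were the collagen hydroxylase gene p4ha1a (2.44 and 11.1 TPM, 2.65-fold), the TOR inhibitor gene ddit4 (75.7 and 261 TPM, 2.20-fold) and the transcription cofactor gene cited2 (48.5 and 161 TPM, 2.13-fold). At 10 hpf 3 were called lower, none higher and 12 lay between (median −0.30 over 23 genes), where 5.56% of all genes were called lower and 3.57% higher. Without rescaling these 3 calls and the 3 at 24 hpf were kept, and fam162a was also lower at 10 hpf (−1.10). Of all genes 9.23% were then lower at 10 hpf and 27% higher at 24 hpf. The 3 genes called lower at 10 hpf after rescaling were the clock repressor gene bhlhe41 (18.2 and 2.33 TPM, 5.64-fold lower), ankrd37 (9.32 and 3.38 TPM, 2.16-fold) and the Myc antagonist gene mxi1 (10.9 and 4.16 TPM, 2.09-fold). At 24 hpf these last genes were not called, with log2 ratios of 0.20, −0.04 and −0.22.

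Pathways that branch from or follow glycolysis were mostly between the thresholds at 24 hpf. Over all genes 8.85% were called lower and 7.01% higher there. Of 28 genes for pyruvate entry and the TCA cycle, 2 were lower, none higher and 23 between, with a median of −0.09. The lower ones were the cytosolic malate dehydrogenase genes mdh1aa (105 and 52.6 TPM, 3.10-fold) and mdh1ab (54.5 and 40.4 TPM, 2.09-fold), which are outside the mitochondrial cycle proper. Of 8 pentose phosphate genes 2 were under 5 TPM and none was called, with a median of 0.11 over 7 genes. Of 14 glycogen genes 3 were lower and 5 between (median −0.40), namely pygmb, a muscle glycogen phosphorylase gene (12.8 and 4.63 TPM, 3.90-fold), pgm1 (2.89-fold) and gyg1a (2.44-fold). Of 11 gluconeogenesis genes pck1 was lower (28.7 and 14.1 TPM, 3.07-fold) and 5 lay between. At 10 hpf the sole gene called in these lists was dlst, of the TCA cycle (8.57 and 16.7 TPM, 2.24-fold higher). There 3.57% of all genes were called higher. Without rescaling pygmb alone of these 24 hpf calls was kept (−1.37), with pck1 (−0.997) and mdh1aa (−0.996) just short of the rule, and the dlst call was lost. Then pck2 (1.35), pcxa (1.13) and idh3b (1.11) were among the genes called higher at 24 hpf, and pygmb lower at 10 hpf (−1.12). Of all genes 2.74% were then lower and 27% higher at 24 hpf, and 9.23% were lower at 10 hpf. The 24 hpf medians without rescaling were 0.55 for pyruvate entry and the TCA cycle, 0.73 for pentose phosphate and 0.20 for glycogen genes. The median of all genes over 5 TPM was 0.65 there.

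Tissue markers differed between the 24 hpf libraries beside these genes. At that stage 8.85% of all genes were called lower and 7.01% higher. Of 20 fast muscle markers 14 were called lower and none higher, and their summed levels were 18266 and 11993 TPM. Of 11 erythroid markers 9 were lower, with sums of 12137 and 3889 TPM. Of 15 yolk syncytial markers at 5 TPM or more 7 were lower, with sums of 35052 and 30255 TPM. Of 11 neuron markers 5 were under 5 TPM, 1 was higher (elavl3, 23.9 and 78.5 TPM) and 2 were lower (tubb5 and gng3). The neuron median log2 ratio was −0.59 over 9 genes at 1 TPM or more, 8 of them below 0, and −0.03 without rescaling. Neuron sums were 290.4 and 297 TPM, and all sums here are of deposited TPM. Without rescaling 8 fast muscle, 8 erythroid, 3 yolk syncytial and 0 neuron markers were lower, and 1 yolk syncytial and 1 neuron marker were higher. Of all genes 2.74% were then lower and 27% higher. No marker of these lists was at 0 in a 24 hpf library. Their part in the lower glycolytic levels was not tested, and in whole embryos fewer cells of a type and less RNA per cell cannot be told apart. At 10 hpf 4 of 12 yolk syncytial markers at 5 TPM or more were called lower in the rbm14 library (median log2 ratio −0.66 over 13 genes). Their sums were 18932 and 14380 TPM, of which apoeb alone had 14405 and 11938 TPM (log2 ratio −0.02). Called lower as well were 2 of 3 erythroid markers, 1 of 5 fast muscle markers (ckmb) and the 1 neuron marker at 5 TPM or more (tubb5). Gastrula markers had a median log2 ratio of 0.61 with 1 of 12 called higher. Of all genes at 10 hpf 5.56% were called lower and 3.57% higher. Without rescaling 6 yolk syncytial markers were lower and 0 gastrula markers higher at 10 hpf, and the other 10 hpf marker counts were the same. Of all genes at 10 hpf 9.23% were then lower and 2.12% higher. Whether stage or tissue differences bear on igfbp1a at 10 hpf was not tested.

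The normal course of the set between the stages was upward in deposited TPM for all 10 genes in the controls, where 55.7% of 14263 genes went down. After rescaling 7 of 9 members at 5 TPM or more were called higher at 24 than at 10 hpf, against 29.6% of 8784 genes, and none was called lower, against 23.1% (52.7% in either direction). Without rescaling 6 were higher, against 23.1%, and none lower, against 37.4%. The steepest with a fold were eno1a (31.2-fold), pgk1 (22.2-fold) and ldha (14.4-fold), while slc2a1a began from a listed 0. Called as well were gapdh (7.26-fold), tpi1b (6.14-fold) and aldoaa (2.14-fold), the last of which was not called without rescaling (0.57), with median-of-ratios scaling (0.76) or with level-dependent scaling (0.75). The genes igfbp1a and slc16a3 were not called, with log2 ratios of 0.85 and 0.79. Over the other settings the igfbp1a ratio ran from 0.34 to 1.01, so it passed the rule at the top of that range.

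With the rbm14 morpholinos 7 of 9 members were higher at 24 than at 10 hpf (35.4% of 9551 genes were) and slc16a3 was lower (22.1% were), where 57.4% of genes were called in either direction. Without rescaling these counts were also 7 (41.9% of genes) and 1 (15.5%). The folds were 16.4 for eno1a, 12.6 for pgk1, 6.03 for ldha, 2.29 for gapdh and 2.14 for tpi1b. Median-of-ratios scaling ended the calls of gapdh (log2 ratio 0.52) and tpi1b (0.44), and a pseudocount of 5 that of tpi1b (0.92). The igfbp1a gene was 4.07-fold higher at 24 hpf and slc16a3 3.25-fold lower, and aldoaa had a log2 ratio of −0.10, with a range of −0.78 to 0.56 over the other settings. These comparisons use the same libraries as those above and are no separate evidence.

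For aldoaa and eno1a the more abundant minor transcript differed less between the 24 hpf libraries than the main one. The main aldoaa transcript, ENSDART00000020741, had 844 and 533 TPM at 24 hpf (log2 ratio −1.30), while the minor ENSDART00000146867, at 0 in both 10 hpf libraries, had 37.8 and 46.5 TPM (−0.34, and 0.30 without rescaling). Likewise the main eno1a transcript ENSDART00000009337 had 41.1 and 28.4 TPM (−1.15), and ENSDART00000133322, at 0 at 10 hpf, had 9.22 and 9.56 TPM (−0.56, and 0.05 without rescaling). Another minor eno1a transcript, ENSDART00000141498, had 2.21 TPM in the 24 hpf control and was listed at 0 in the 24 hpf rbm14 library. The main slc16a3 transcript, ENSDART00000066233, had 7.18 and 19.0 TPM in the 10 hpf pair, then 8.38 and 6.95 TPM in the 24 hpf pair. Its own 24 hpf ratio was −0.85, so the call of slc16a3 there includes the minor transcripts. For gapdh, pgk1, ldha and igfbp1a 1 transcript held over 90% of the TPM in each library, and slc2a1a has 1 transcript.

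The genes with the most similar course over the 4 libraries were found by Euclidean distance between log2(TPM + 0.5) profiles, each centred on its mean, among genes with 5 TPM or more in a library. Deposited TPM was used without rescaling, and genes with symbols built from clone, locus or small RNA names were left out. With 4 libraries and 8518 candidates this is a description of level alone. Nearest to slc2a1a was the extracellular matrix gene optc (distance 0.22), at 0.05, 0.09, 10.3 and 39.0 TPM in the order 10 hpf control, 10 hpf rbm14, 24 hpf control and 24 hpf rbm14, followed by tmprss9 and the matrix protease gene mmp2 (both 0.33). Nearest to igfbp1a was tmem141 (0.31), at 4.20, 0.50, 5.49 and 4.82 TPM. Nearest to slc16a3 was seph (0.33), at 414.5, 646, 464 and 288 TPM. Nearest to eno1a was s100a10b (0.05) and to gapdh gadd45gb.1 (0.11).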

How the data were processed

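The authors deposited one table of TPM per Ensembl transcript for each library. No source names the unit; each column holds fractional values with the same total, 1e+06. The submitters' processing notes list build GRCz10 and the tools HTSeq 0.6.1, HISAT2 2.0.1 and Trimmomatic 0.30, without their roles. How transcripts were quantified, with which annotation and strand setting, is not given in the sources used here. As TPM keeps no depth and low values show no common step, depth is unknown and no interval or floor is given. A value listed at 0 may be a failed estimate. With 1 library per group, log2 levels were compared without a test.

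Transcripts were summed by symbol with pandas 2.3.3 and numpy 2.4.6 (Python 3.11.15). For each pair of libraries, log2 ratios of genes at 1 TPM or more in both were averaged without weights after trimming 30% of ratios and 5% of levels at each end, this shift was removed, and 0.5 TPM was added. Scaling and calling were run on all genes and tried on simulated data with a uniform shift and as many genes raised as lowered. That simulation checks the code and cannot show how well the scaling suits these libraries. Other scalings, pseudocounts, thresholds and use of the most abundant transcript were tried. Of 258 listed symbols in 15 lists, 245 matched by symbol, 6 by synonym and 7 did not match. Named genes were the 10 members, up to 4 genes past the rule per list and knockdown comparison, and the 3 nearest profiles per member. Paralogs and related genes outside this rule, among them ldhba, hk1, pfklb, pfkfb4b, slc16a1b, bsg, hif1ab and egln1b, were named after their values were seen. The members, lists and tests were chosen with earlier results of these data known. Promoter and protein sequences and genome coordinates were not used here, and the planned search of promoters for hypoxia response motifs was not run.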

Additional observations from a re-analysis of the deposited data

Results flagged for a closer look

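For 3 genes the rbm14 library stood above its control at 10 hpf and below it at 24 hpf under the trimmed-mean scaling, no rescaling and median-of-ratios scaling. The log2 ratio at 24 hpf minus that at 10 hpf was −2.49 for slc16a3 (1.32 at 10 hpf and −1.16 at 24 hpf), −1.67 for gapdh (0.41 and −1.26) and −1.53 for tpi1b (0.84 and −0.69). Without rescaling the differences were −1.64, −0.78 and −0.66. With 1 library per group these differences were not tested.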

How the results depend on the processing

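The count of 7 members lower at 24 hpf was 1 without rescaling, 4 with level-dependent scaling and 4 with a pseudocount of 5, and 6 to 8 under the other settings. The count of 1 member higher at 10 hpf was 2 with a fold threshold of 1.5 and 2 with median-of-ratios scaling. The 2-fold calls of slc2a1a and ldha at 24 hpf and of igfbp1a and slc16a3 at 10 hpf held under every setting run for members. Among recomputed member ratios 245 stayed as in the main run, some of them called and others called in neither. Another 19 fell below the rule and 2 passed it newly. None called changed sign. Among medians of the gene lists 264 moved by at most 1.5-fold and 22 by more. The cause was not tested.

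Over all genes the 10 hpf calls of 261 higher and 407 lower were 155 and 676 without rescaling, 463 and 250 with median-of-ratios, 125 and 93 with a pseudocount of 5, 908 and 1004 at 1.5-fold, and 501 and 1013 with a level minimum of 1 TPM. The 24 hpf calls of 639 and 807 were 2460 and 250, 477 and 1025, 194 and 504, 1601 and 1712, and 1258 and 1300. Between stages in the controls, 2600 higher became 4835 with a minimum of 1 TPM, and 2029 lower became 3282 without rescaling, 3070 at 1.5-fold and 1245 with a pseudocount of 5. With the rbm14 morpholinos 3377 higher became 6334 with a minimum of 1 TPM and 2214 with a pseudocount of 5, and 2107 lower became 3461 with median-of-ratios. No paired analysis was possible because each group has 1 library. No replicate could be left out for the same reason.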
